A study of Mus musculus with 21 samples.

Results

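The mitochondrial ribosomal protein genes were taken as every protein-coding gene whose symbol begins with Mrpl or Mrps, pseudogenes excluded. The rule found 78 genes among 51467 in the count tables, 49 named Mrpl for the large subunit and 29 named Mrps for the small subunit. RNA labelled for 30 min with 500 uM 4-thiouridine (4sU), which marks newly made (nascent) transcripts, and total RNA were sequenced from the same 7 cultures of mouse V6.5 embryonic stem cells (ESCs). All cells grew in LIF and 2i, inhibitors that hold ESCs in the naive state. The 3 wild-type (WT) cultures were compared with 4 cultures lacking *Ddx6*, 2 from each of 2 *Ddx6* KO clones made with Cas9, so that each KO line descends from 1 cell. *Ddx6* codes for a DEAD box helicase that binds the decapping and deadenylation machinery. Counts summed to between 2441639 and 3570192 per 4sU library and between 5724179 and 7369651 per total RNA library.

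The mitochondrial ribosome makes the few membrane proteins of the respiratory chain that are encoded by mitochondrial DNA. Its rRNAs are mitochondrial, but all of its proteins are encoded in the nucleus, translated in the cytosol and imported. Its protein set joins homologs of bacterial ribosomal proteins with others found in mitochondria alone. The question asked here was how the nascent RNA, the total RNA and the ratio of total to 4sU RNA, a measure of relative mRNA stability, of these genes compared between WT and *Ddx6* KO ESCs.

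Values are counts per 1000000 (CPM) normalised with TMM factors, and a change is the log2 fold change of *Ddx6* KO over WT ± SE from edgeR's quasi-likelihood test, called at a Benjamini-Hochberg adjusted p below 0.05 over 14518 genes. *Ddx6* itself was read first, as the targeted gene. Its total RNA was 333, 383 and 391 CPM in WT, 57.2 and 67.7 CPM in clone 1 and 23.1 and 21.5 CPM in clone 2 (log2 fold change -3.12, adjusted p = 9.22e-06). In nascent RNA the WT cultures had 242, 245 and 270 CPM and the KO cultures 224, 231, 163 and 145 CPM (-0.41, adjusted p = 0.348). The 10 embryonic stem cell markers were all expressed, with a summed total RNA level of 5402 to 5572 CPM in WT and 5341 to 5534 CPM in KO. Primed epiblast markers summed to 140 to 153 CPM in WT and 80.0 to 91.2 CPM in KO, with *Fgf5* below 1 CPM, and neural markers to 97.9 to 99.2 and 60.4 to 64.3 CPM, with *Pax6* below 1 CPM. The 4 endoderm genes summed to 5.51 to 8.33 CPM in WT and 6.04 to 7.68 CPM in KO, the 3 mesoderm genes to 14.4 to 19.98 and 11.8 to 15.1 CPM, and the 5 fibroblast feeder genes to 12.2 to 15.9 and 15.7 to 17.4 CPM, with *Postn* at 0 throughout. The part of these marker levels in the results was not tested, and in bulk RNA fewer cells of a type cannot be told apart from less RNA per cell.

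Over the 14 libraries of both genotypes, 77 of the 78 genes passed the filter of at least 3 CPM in at least 3 libraries. In WT cells their median total RNA level, per kb of exon, was 33.0 CPM. It was 8.15 CPM for all genes tested and 88.9 CPM for 82 genes of the cytosolic ribosome. The large subunit had a median of 39.1 CPM per kb and the small subunit 28.7 CPM per kb. In 4sU RNA the medians were 29.1 CPM per kb for the large and 21.01 CPM per kb for the small subunit, against 8.26 CPM per kb for all genes. The cytosolic genes had 293 CPM per kb in 4sU RNA, and 179 CPM per kb in the single-end run alone, the only run of total RNA. The members had 26.1 CPM per kb in both. The part of the run and of unique mapping in the cytosolic levels was not tested.

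The highest total RNA levels per length belonged to *Mrpl42*, with 122 ± 9.78 CPM per kb (SD, n = 3), *Mrpl34* with 98.0 ± 5.53, *Mrpl2* with 90.4 ± 6.84 and *Mrps16* with 89.9 ± 8.47. Except that *Mrpl42* lay above the others, these neighbours did not differ beyond their spread. The order carries a limit for *Mrpl42*: 64.4% of its transcript has a copy of at least 95% identity in a processed pseudogene, and only uniquely mapped reads were counted. Such copies over most of the transcript were found for 6 members, which included *Mrpl22* (86.0%) and *Mrpl23* (78.0%).

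At the other end stood *Mrpl23*, with 0.47 ± 0.28 CPM per kb, *Mrps36* with 1.13 ± 0.82 and *Mrps33* with 1.76 ± 0.99. The cultures of *Mrps36* overlapped those of both other genes, while every *Mrps33* culture lay above every *Mrpl23* culture. *Mrpl53* had 0 counts in all 14 libraries. All 695 exon bases of *Mrpl53* (chr6:83109040-83109939, mm10, plus strand) are also exon bases of the gene *Gm42688* on the same strand, and the counting as run leaves out reads that fall on exons of more than 1 gene. Its 0 therefore says nothing of its level, and it was not tested. *Mrps36*, whose product is also known as a part of the 2-oxoglutarate dehydrogenase complex, had 1.30, 0.16 and 0.92 CPM of total RNA in the WT cultures.

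The ratio of total to 4sU RNA ranged widely among the members in WT cells. The median log2 ratio was 0.35, against 0.07 for all genes tested, which put the median member at percentile 58.3 of all genes. The ratio was above 0 for 49 of the 77 genes, 31 of 48 in the large and 18 of 29 in the small subunit. The highest values were those of *Mrps28* (1.98 ± 0.24, SD, n = 3), *Mrpl14* (1.76 ± 0.36) and *Mrpl24* (1.67 ± 0.34), which did not differ beyond their spread. *Mrpl14* and *Mrpl24* code for large subunit homologs of bacterial proteins. The lowest were those of *Mrpl23* (-2.84 ± 0.51), *Mrps33* (-1.63 ± 0.43) and *Mrps36* (-1.55 ± 1.26). These were also the tested genes with the lowest total RNA, which is the numerator of the ratio. *Mrpl23* and *Mrps36* were below 3 CPM in every total RNA library, so they passed the filter on 4sU RNA alone. At such levels the 0.5 CPM added to each value weighs on the ratio, and the edgeR fit gave -3.72 for *Mrpl23* in WT. Copies of at least 95% identity in a processed pseudogene covered 78.0% of the transcript of *Mrpl23*, 29.0% of *Mrps33* and 44.1% of *Mrps36*. *Mrpl42*, with 64.4%, had a ratio of 0.95. Only uniquely mapped reads were counted, and only 4sU RNA had a paired run. The part of this in the low ratios was not tested.

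Shorter members tended to have the higher ratio. The 26 members with the shortest exon length (478 to 1048 bases) had a median log2 ratio of 0.54 and the 26 longest (1848 to 7605 bases) a median of 0.14. Spearman's rho between ratio and length was -0.26 over 77 genes and -0.03 over 12110 protein-coding genes, values given as a description because all points share the same libraries. The members are short: their principal transcripts had a median of 1253 bases with 582 coding bases, against 2952.5 and 1399.5 bases for all tested protein-coding genes.

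**Figure D1:**
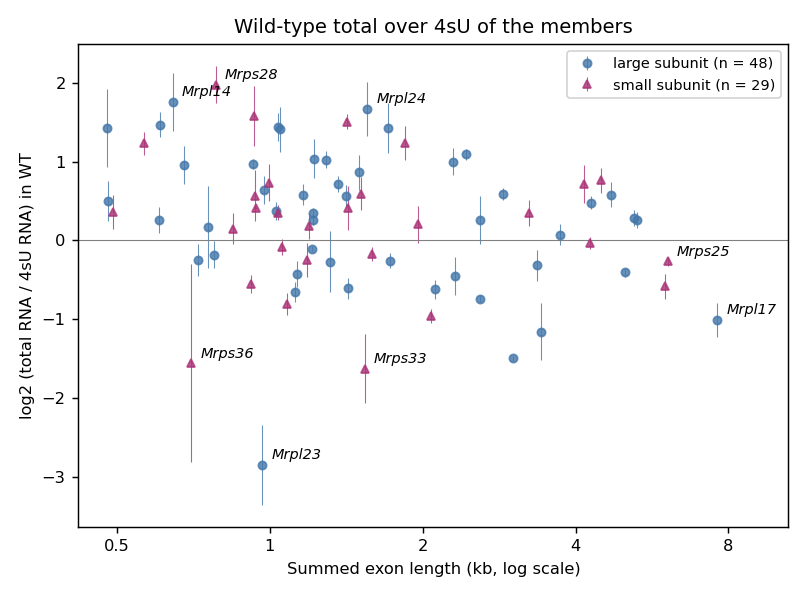
Log2 total over 4sU in WT cultures (mean and SD, n = 3) is plotted against summed exon length in kb on a log axis, for 48 large and 29 small subunit genes. *Mrps28*, *Mrpl14* and *Mrpl24* lie highest and *Mrpl23* lowest, with the widest error bar at *Mrps36*.

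In nascent RNA, more members were lower than higher in *Ddx6* KO cells. Of 77 genes, 25 were lower and 5 higher, and 47 did not pass the test. Members lower made up 32.5%, against 21% of all genes tested, and members higher 6.49%, against 20.6% of all genes. The median log2 fold change was -0.13, against 0.00 for all genes. Without TMM factors (library size alone) the split turned, to 11 lower and 13 higher (12.7% lower and 36.3% higher among all genes), while the median of all genes moved to 0.21 and that of the members to 0.07, so that the difference of the members from all genes was -0.14 in both cases. The large subunit had 16 lower and 4 higher of 48 (median -0.14), and the small subunit 9 lower and 1 higher of 29 (median -0.12).

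In total RNA the same lean was found in more genes. Here 43 of 77 members were lower (55.8%, against 31% of all genes), 5 were higher (6.49%, against 19.5%), and 29 did not pass the test. The median was -0.24, against -0.10 for all genes. The difference of the members from all genes was -0.15, near the -0.14 in nascent RNA. The large subunit had 27 lower and 4 higher of 48 with a median of -0.24, and the small subunit 16 lower and 1 higher of 29 with a median of -0.29. With library size alone the count was 24 lower and 7 higher, against 19.4% lower and 29.4% higher among all genes. With TMM factors set within each RNA fraction it was 33 lower and 7 higher, against 24.1% and 24.8% of all genes. The medians were then -0.15 for the members and -0.01 for all genes. In 41 members every KO culture lay below every WT culture in total RNA (53.2%, against 32% of all genes), and in 22 this was so in nascent RNA (28.6%, against 21.2%).

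The sizes were small throughout. Only *Mrps24* passed a fold of 2 together with the adjusted p, in nascent and in total RNA, where 10.9% and 10.1% of all genes did so. The members lower in nascent and in total RNA overlapped in 20 genes, which was 80% of the former and 46.5% of the latter, and no member was called in opposite directions. The 5 members higher in nascent RNA were the 5 higher in total RNA. Nascent and total RNA came from the same cultures.

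**Figure D2:**
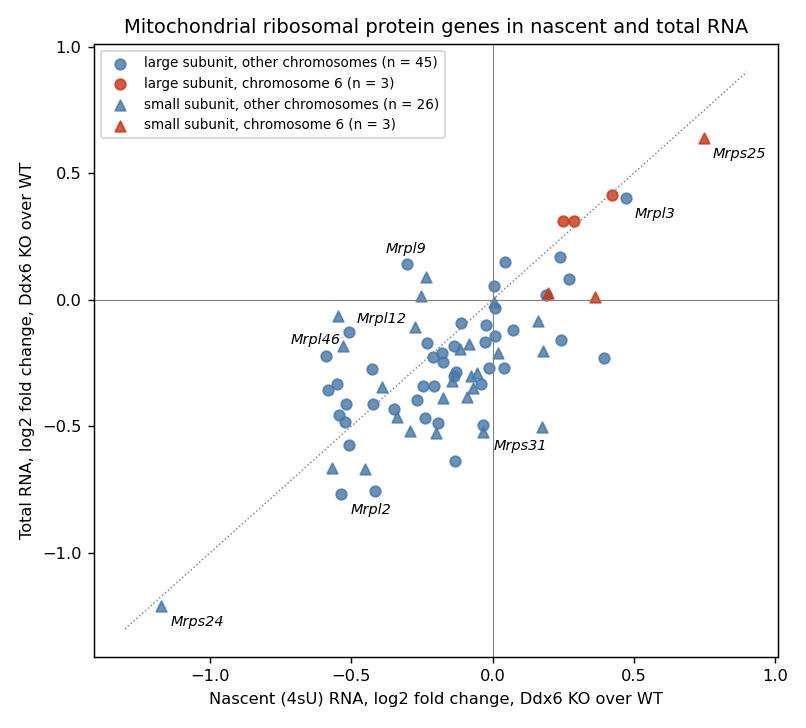
Each of the 77 tested members is placed by its log2 fold change (*Ddx6* KO over WT) in nascent RNA on the x axis and in total RNA on the y axis, with circles for the large and triangles for the small subunit, red for chromosome 6, and a dotted line of equal change. Most points lie below 0 on the y axis, *Mrps24* alone lies beyond -1 on both axes, and the chromosome 6 genes lie at or above 0 on both.

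Culture by culture, the member medians separated by genotype in both RNA fractions. Relative to each gene's WT mean, the median of all members in total RNA was -0.02, 0.02 and 0.01 in the WT cultures, -0.24 and -0.33 in clone 1 and -0.19 and -0.27 in clone 2. In nascent RNA it was 0.00, 0.04 and -0.01 in WT, -0.14 and -0.14 in clone 1 and -0.12 and -0.11 in clone 2. Both fractions kept every KO culture below every WT culture. The median of all genes tested was also lower in KO in total RNA, with -0.01, 0.00 and 0.01 in WT and -0.09, -0.09, -0.08 and -0.09 in KO, and lay between 0.00 and 0.01 in every culture in nascent RNA. The clones were also set against each other within the same model. By edgeR no member differed between clone 1 and clone 2 in nascent RNA, total RNA or their ratio, with 3, 4 and 5 members at an unadjusted p below 0.05. This comparison of 2 against 2 cultures called 25, 43 and 1 of all 14518 genes, so 0 called members is near the share of all genes.

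**Figure D3:**
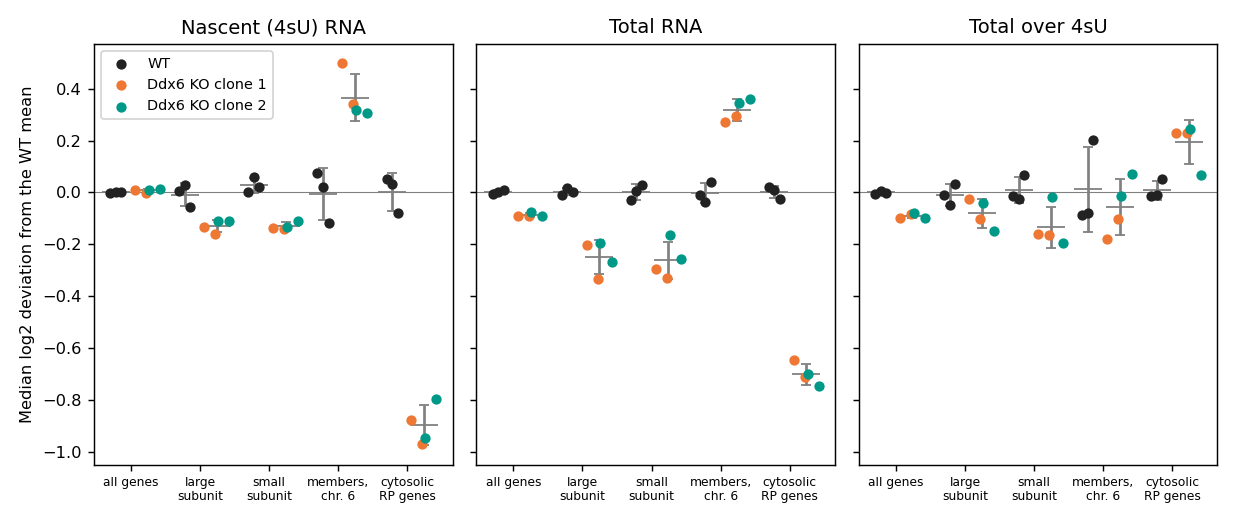
For each culture, the median log2 deviation from each gene's WT mean is shown over all genes tested, large and small subunit members, members on chromosome 6 and cytosolic ribosomal protein (RP) genes, in nascent RNA, total RNA and their ratio, with means and SD in grey (n = 3 WT and 4 KO cultures). Large and small subunit medians sit below 0 in all 4 KO cultures in nascent and total RNA, less far than those of the cytosolic genes, and chromosome 6 members sit above 0.

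*Mrps24* (chr11:5703983-5707687, minus strand), a small subunit protein with a bacterial homolog, had the largest fall. Its total RNA was 74.97, 80.7 and 76.7 CPM in WT, 35.0 and 30.8 CPM in clone 1 and 36.0 and 32.1 CPM in clone 2. No KO culture reached the lowest WT value. Total RNA fell by 1.21 ± 0.09 on the log2 scale (adjusted p = 1.41e-17). Nascent RNA fell by 1.17 ± 0.13, from 48.5, 54.3 and 38.2 CPM to 18.1, 22.99, 18.1 and 23.9 CPM (adjusted p = 4.83e-11). The ratio differed by -0.04 ± 0.16 (adjusted p = 0.927). Upstream of its RefSeq start (GRCm38.p6) stand adjacent copies of GGGCGG, the SP1 box, in reverse complement, and just after the start the YY1 box AAGATGGCG. Both are shown in capitals as 30 bases on the gene's strand, at chr11:5707737-5707766 and chr11:5707652-5707681.
Mrps24 upstream: cctcgccacgccCCGCCCCCGCCCgtgttc
Mrps24 downstream of the start: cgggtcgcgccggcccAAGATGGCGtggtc

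Other falls in total RNA were led by *Mrpl2* and *Mrpl36*, large subunit homologs of bacterial proteins, *Mrps5*, a small subunit homolog, *Mrps30* and *Mrpl22*. *Mrpl2* had 90.5, 102 and 89.1 CPM in WT and 54.7, 54.4, 59.0 and 52.2 CPM in KO, and fell by 0.77 ± 0.08 (adjusted p = 1.53e-12). *Mrpl36* fell by 0.75 ± 0.09, from 53.1, 51.6 and 51.4 CPM to 32.8, 29.5, 31.3 and 29.8 CPM (adjusted p = 5.57e-10). In both genes the groups were apart, with the KO cultures close to one another. *Mrps5* fell by 0.67 ± 0.07, from 101, 96.6 and 102 CPM to 63.1, 59.2, 61.0 and 67.6 CPM (adjusted p = 1.9e-11). *Mrps30*, which carries a small subunit name but sits in the large subunit, fell by 0.67 ± 0.07, from 111, 103 and 121 CPM to 66.6, 68.3, 77.2 and 69.1 CPM (adjusted p = 7.66e-12). These genes also fell in nascent RNA, by 0.54 for *Mrpl2*, 0.42 for *Mrpl36*, 0.45 for *Mrps5* and 0.57 for *Mrps30*. *Mrpl22* fell by 0.64 ± 0.15 in total RNA, from 14.6, 18.8 and 19.9 CPM to 9.38, 9.54, 13.6 and 13.4 CPM (adjusted p = 0.000288), with -0.13 in nascent RNA (adjusted p = 0.574). Its counts are the least certain of these, given its pseudogene copy.

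**Figure D4:**
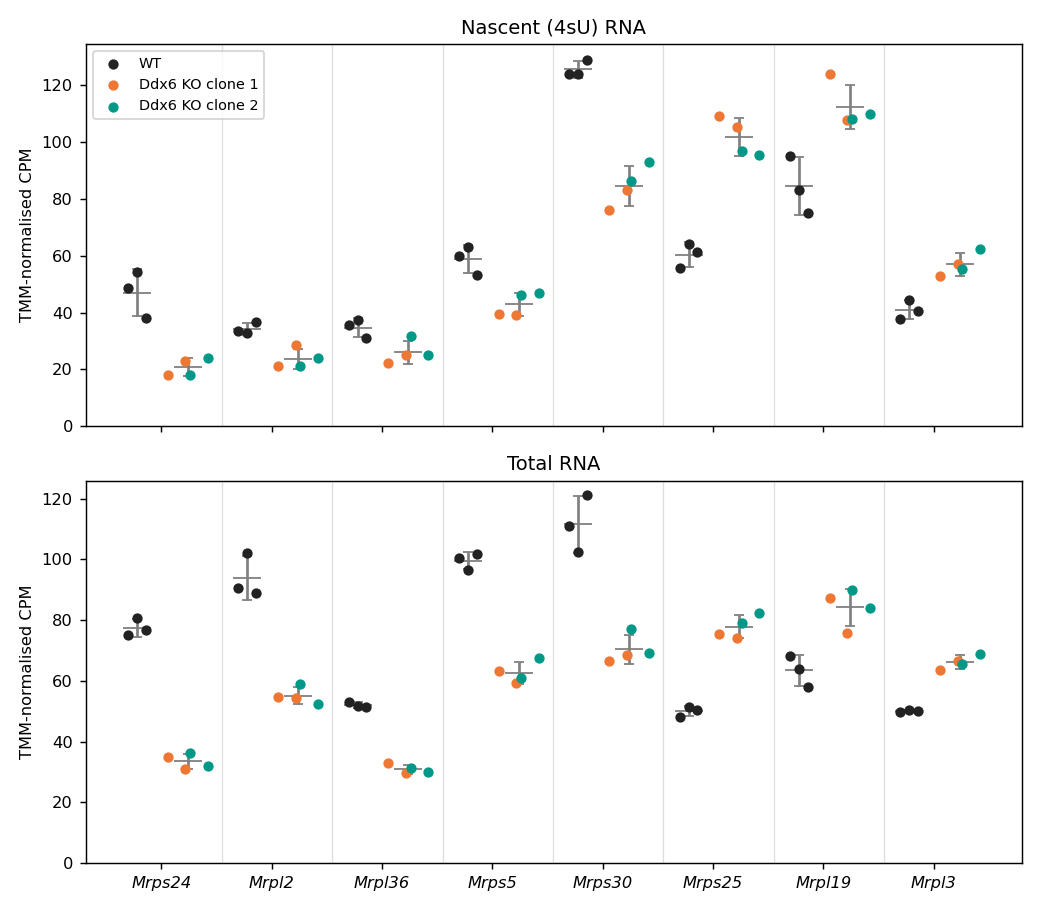
TMM-normalised CPM of 8 members in each culture, with mean and SD in grey (n = 3 WT and 4 KO cultures), in nascent RNA above and total RNA below. In total RNA the WT and KO points are apart in all 8 genes, with *Mrps24*, *Mrpl2*, *Mrpl36*, *Mrps5* and *Mrps30* lower and *Mrps25*, *Mrpl19* and *Mrpl3* higher in *Ddx6* KO.

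After *Mrps24*, the largest nascent falls were those of *Mrpl46*, *Mrpl49*, *Mrps30*, *Mrpl42* and *Mrps6*. *Mrpl46*, a large subunit protein without a bacterial homolog, fell by 0.59 ± 0.11, from 51.1, 62.0 and 58.0 CPM to 40.5, 43.1, 32.8 and 36.2 CPM (adjusted p = 2.21e-05). It shares its start region with *Mrps11*, the only neighbouring pair of members, whose starts lie 30 bases apart on opposite strands (chr7:78775236-78783089 and chr7:78783119-78792989). *Mrps11*, a small subunit homolog of a bacterial protein that was looked up after its values were seen, fell in nascent RNA by 0.53 ± 0.15, from 25.998, 25.9 and 28.4 CPM to 18.1, 16.6, 17.2 and 22.1 CPM (adjusted p = 0.00389). In total RNA *Mrpl46* fell by 0.22 (adjusted p = 0.0448) and *Mrps11* differed by -0.18 (adjusted p = 0.187). A stretch of 30 bases at chr7:78783103-78783132, on the strand of *Mrps11*, covers part of the space between them and the first bases of *Mrps11*, and holds 1 SP1 box in capitals.
Mrps11 and Mrpl46: cgggccggcgagGGGCGGgtttaccgagtg

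*Mrpl49* fell by 0.58 ± 0.08 in nascent RNA, from 101, 104 and 120 CPM to 68.8, 69.6, 80.7 and 70.9 CPM (adjusted p = 5.52e-08). *Mrpl42* fell by 0.55 ± 0.12, from 44.1, 37.2 and 46.4 CPM to 25.8, 27.8, 26.2 and 35.7 CPM (adjusted p = 0.00021). Both products belong to the mitochondria-specific part of the large subunit, and in both genes no KO culture reached a WT culture. *Mrps6*, a small subunit homolog of a bacterial protein, was the weakest call, with 12.8, 12.03 and 12.2 CPM in WT and 5.09, 9.26, 11.7 and 7.88 CPM in KO (-0.55 ± 0.23, adjusted p = 0.0458). It lost the call in 12 of 18 alternatives, which spanned adjusted p from 0.0126 to 0.445. Without 1 culture it was lost for each WT culture (adjusted p = 0.102, 0.0848 and 0.0895), clone 1 culture 1 (0.205, from a difference of -0.36) and clone 2 culture 2 (0.09). *Mrps6* shares 18.8% of its exon bases with *Slc5a3*.

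Chromosome 6 held 4 of the 5 members that rose. *Mrps25* (chr6:92169525-92184033, minus strand), a mitochondria-specific small subunit protein, had 55.5, 64.2 and 61.2 CPM of nascent RNA in WT and 109, 105, 96.9 and 95.3 CPM in KO. Nascent RNA rose by 0.75 ± 0.09 (adjusted p = 3.6e-10). Its total RNA rose by 0.64 ± 0.08, from 48.1, 51.4 and 50.3 CPM to 75.5, 74.1, 79.2 and 82.5 CPM (adjusted p = 3.13e-10). *Mrpl19*, a large subunit homolog of a bacterial protein, rose by 0.42 ± 0.09 in nascent and 0.41 ± 0.08 in total RNA, the latter from 68.3, 64.0 and 57.8 CPM to 87.3, 75.7, 89.9 and 83.8 CPM (adjusted p = 1.1e-05). *Mrpl35*, also a large subunit homolog, rose by 0.29 and 0.31, and *Mrpl51*, a mitochondria-specific one, by 0.25 and 0.31.

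The weakest of these was *Mrpl51* in nascent RNA, where the KO cultures (100, 110, 116 and 95.6 CPM) overlapped the WT cultures (95.2, 99.9 and 71.3 CPM). Its adjusted p was 0.0366, and the call was lost in 9 of 18 alternatives, which spanned adjusted p from 0.000102 to 0.457. Without WT culture 3 the nascent difference of *Mrpl51* was 0.10 (adjusted p = 0.457), without clone 1 culture 2 it had adjusted p = 0.0849 and without clone 2 culture 1 adjusted p = 0.107. In total RNA the call of *Mrpl51* was lost without WT culture 1 (adjusted p = 0.12). The remaining tested genes on this chromosome, *Mrps33* (0.36 and 0.01) and *Mrps35* (0.20 and 0.03), did not pass the test in either fraction. Their WT and KO cultures overlapped.

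Genes of chromosome 6 as a whole moved the same way. Of its 735 tested genes, 431 were higher and 32 lower in nascent RNA with a median of 0.53. In total RNA 431 were higher and 47 lower, with a median of 0.43. Genes higher made up 58.6% in each fraction, against 20.6% and 19.5% of all genes. Genes lower made up 4.35% and 6.39%, against 21% and 31%. The 6 members had medians of 0.33 and 0.31. The part of the chromosome in the rise of its members was not tested. Over the 71 tested members on other chromosomes, 25 were lower and 1 higher in nascent RNA (median -0.17). In total RNA 43 were lower and 1 higher (median -0.27). Members lower made up 35.2% and 60.6% of the 71, against 21% and 31% of all genes. The 1 gene higher made up 1.41% in each fraction, against 20.6% and 19.5% of all genes.

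That 1 gene was *Mrpl3* on chromosome 9 (chr9:105053239-105079888, plus strand), the large subunit homolog of bacterial L3. Its nascent RNA was 37.9, 44.5 and 40.7 CPM in WT and 52.9, 57.2, 55.4 and 62.5 CPM in KO, a rise of 0.47 ± 0.10 (adjusted p = 0.000179). Its total RNA rose by 0.40 ± 0.08, from 49.6, 50.4 and 49.9 CPM to 63.4, 66.5, 65.4 and 68.9 CPM (adjusted p = 2.08e-05). The nascent call was lost in the re-sequencing run alone, where the value was 0.16 (adjusted p = 0.464), and was kept in the single-end run. The ETS box CCGGAAGT begins 19 bases before its RefSeq start and is shown in capitals at chr9:105053238-105053267.
Mrpl3: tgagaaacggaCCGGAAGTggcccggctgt

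The ratio of total to 4sU RNA changed in few members. Only 2 of 77 were higher (2.60%, against 3.78% of all genes) and 2 lower (2.60%, against 8.6%), and no member passed a fold of 2, as 1.08% of all genes did. The member median of -0.10 stood beside -0.09 for all genes. The share of all genes lower depends on the scaling. With TMM factors set within each RNA fraction, 3.97% of all genes were lower and 5.04% higher. The medians were then -0.007 for the members and -0.002 for all genes. The large subunit had 2 higher and 1 lower of 48 with a median of -0.07, and the small subunit none higher and 1 lower of 29 with a median of -0.18.

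*Mrps31* and *Mrpl39*, both mitochondria-specific proteins, were the members that fell. The log2 ratio of *Mrps31* was 0.80, 0.60 and 0.38 in WT, 0.06 and 0.16 in clone 1 and 0.12 and 0.03 in clone 2, a fall of 0.49 ± 0.12 (adjusted p = 0.00301). Its nascent RNA did not pass the test (-0.03, adjusted p = 0.8), while its total RNA fell by 0.52 (adjusted p = 1.08e-08). *Mrpl39* had ratios of 1.05, 0.81 and 1.137 in WT and 0.47, 0.67, 0.56 and 0.41 in KO, and fell by 0.46 ± 0.12 (adjusted p = 0.00889), with -0.03 in nascent and a fall of 0.49 in total RNA. For both genes all KO ratios lay below all WT ratios. *Mrpl39* lost its call in 3 of 19 alternatives, with adjusted p = 0.0753 in clone 1 alone, 0.172 in the re-sequencing run alone and 0.0728 without WT culture 3.

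*Mrpl9* and *Mrpl12*, large subunit homologs of bacterial proteins, were the members whose ratio rose. *Mrpl12* is part of the ribosomal stalk and is also known to bind the mitochondrial RNA polymerase. For *Mrpl9* the ratio was -0.70, -0.73 and -0.78 in WT and 0.05, -0.40, -0.34 and -0.50 in KO, a rise of 0.44 ± 0.13 (adjusted p = 0.0151). Its nascent RNA fell by 0.30 and its total RNA differed by 0.14 (adjusted p = 0.17). For *Mrpl12* the ratio was -0.71, 0.01 and -0.11 in WT and 0.02, 0.24, 0.18 and 0.07 in KO, a rise of 0.38 ± 0.13 (adjusted p = 0.0467), with a fall of 0.51 in nascent RNA and -0.13 in total RNA (adjusted p = 0.203). WT culture 1 lay far below the other WT cultures, and without it the difference of *Mrpl12* was 0.18 (adjusted p = 0.477). *Mrpl12* lost its call in 9 of 19 alternatives, also without clone 1 culture 2 (adjusted p = 0.119) or clone 2 culture 1 (adjusted p = 0.102). *Mrpl9* lost it in 5, among them without WT culture 2 (adjusted p = 0.0548), WT culture 3 (adjusted p = 0.0568) or clone 1 culture 1 (adjusted p = 0.0901).

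The NRF1 box GCATGCGC stands in the RefSeq promoter window (250 bases before to 50 after the start) of *Mrpl9*, whose ratio rose, and of *Mrpl39*, whose ratio fell. In both it overlaps its own reverse complement, forming the same 10 letters shown in capitals, at chr3:94443299-94443328 and chr16:84735349-84735378.
Mrpl9: ggcgcagctGCGCATGCGCggggtccttct
Mrpl39: aggagaggcGCGCATGCGCccccgcgtggc

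**Figure D5:**
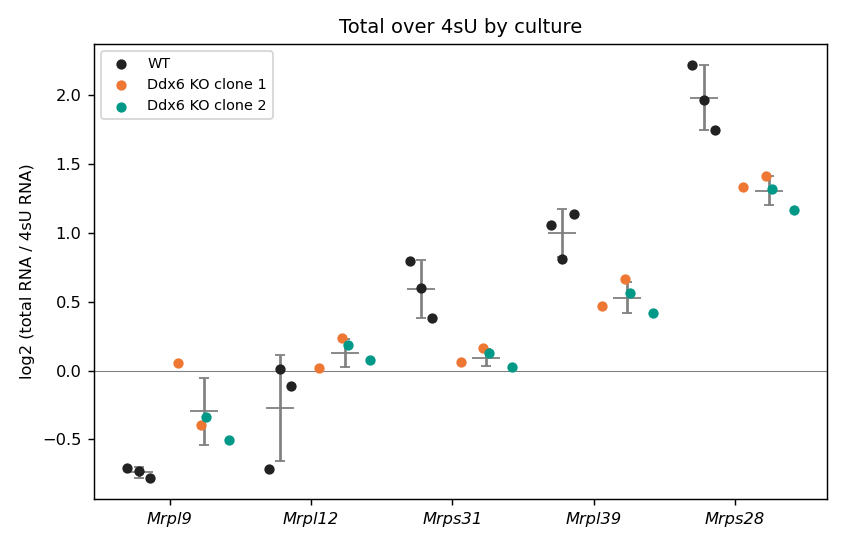
Log2 total over 4sU by culture, with mean and SD in grey (n = 3 WT and 4 KO cultures), for the 4 members called in the ratio and for *Mrps28*. *Mrpl9* and *Mrpl12* lie higher and *Mrps31* and *Mrpl39* lower in *Ddx6* KO, and 1 WT culture of *Mrpl12* lies near that of *Mrpl9*.

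*Mrps28*, which had the highest WT ratio, had values of 2.22, 1.96 and 1.75 in WT and 1.33, 1.41, 1.31 and 1.16 in KO. The groups were apart, yet the difference of -0.68 ± 0.24 did not pass the test (adjusted p = 0.0545), and its nascent counts were low, at 7.05 to 10.8 CPM over all cultures. Its total RNA fell by 0.50 (adjusted p = 7.68e-05). Among the members of highest WT level per length, total RNA fell by 0.40 for *Mrpl34*, 0.39 for *Mrps16* and 0.33 for *Mrpl42*, besides *Mrpl2*. It fell by 0.27 for *Mrpl24*. *Mrpl14* differed by -0.17 (adjusted p = 0.319). *Mrpl23* and *Mrps36* did not pass the test in any comparison, with SE of 0.66 and 0.63 in total RNA.

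The 3 paralogs of bacterial S18 were compared as the only such family under 1 number. *Mrps18c*, the closest homolog, had 18.6 ± 1.85 CPM of total RNA in WT (SD, n = 3) and 18.8 ± 2.04 CPM in KO (n = 4), a difference of 0.01 ± 0.13 (adjusted p = 0.939). *Mrps18a*, which sits in the large subunit, differed by -0.08 ± 0.10 (adjusted p = 0.53). *Mrps18b* fell by 0.29 ± 0.10 (adjusted p = 0.0124), from 30.9, 33.6 and 36.1 CPM to 26.9, 26.1, 31.7 and 25.2 CPM, where 1 KO culture overlapped the WT range. None of the 3 passed the test in nascent RNA or in the ratio.

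Promoter windows from RefSeq were matched for 69 of the 78 members and searched on both strands for 4 motifs. The genes set beside them are all 27025 with a window, expressed in these cells or not, while 77 of the 78 members passed the filter. The 2 sets are therefore unlike, and the shares among the 14518 tested genes alone were not counted. GCATGCGC (NRF1) was in the windows of 8 members (11.6%, against 3.05% of 27025 genes), CCGGAAGT (ETS) in 12 (17.4%, against 4.31%), AAGATGGCG (YY1) in 8 (11.6%, against 1.64%) and GGGCGG (SP1) in 34 (49.3%, against 38.2%). In 63 matched genes of the cytosolic ribosome the shares were 4.76% for NRF1, 19.05% for ETS, 6.35% for YY1 and 61.9% for SP1, so those of ETS and SP1 were higher there than in the members. None of these motifs contains another. Among the 22 matched members lower in nascent RNA, 1 held ETS, 4 YY1, 2 NRF1 and 13 SP1, and among the other 47 the counts were 11, 4, 6 and 21. These counts are a description of letters, not of binding.

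Other genes of mitochondrial translation were set beside the members. Of 5 mitoribosomal proteins under other names, *Dap3*, *Aurkaip1* and *Gadd45gip1* fell in total RNA by 0.43, 0.40 and 0.39, *Ptcd3* on chromosome 6 rose by 0.36, and *Chchd1* was not called (0.09). In nascent RNA, *Aurkaip1* fell by 0.28 and *Gadd45gip1* by 0.58 and *Ptcd3* rose by 0.45. The ratio of *Dap3*, a GTP-binding small subunit protein, fell by 0.48 (adjusted p = 0.01).

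Among 17 tested translation factors and associated genes, 3 were lower and 2 higher in nascent RNA, 6 lower and 2 higher in total RNA, and 4 lower in the ratio. The shares lower were 17.6% in nascent and 35.3% in total RNA, near the 21% and 31% of all genes. The share higher was 11.8% in each fraction, below the 20.6% and 19.5% of all genes. In the ratio the share lower was 23.5%, against 8.6% of all genes. The nascent falls were those of the elongation factor *Tufm* (-0.54), *Taco1* (-0.47) and *Slirp* (-0.33), and the rises those of *Tsfm* (0.42) and *Gfm1* (0.35). In total RNA the release factor *Mtrf1l* (-0.66), the insertase *Oxa1l* (-0.46) and *Lrpprc* (-0.38) led the falls, and *Mtfmt* (0.48) and *Mrrf* (0.36) rose. The ratio fell most for *Tsfm* (-0.68), the exchange factor of *Tufm*, for *Mtrf1l* (-0.61) and for *Gfm1* (-0.31).

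Among 30 assembly and rRNA modification factors, 7 were lower and 4 higher in nascent RNA, 10 lower and 2 higher in total RNA, and 4 lower and 1 higher in the ratio. Here too the shares lower in nascent and total RNA, 23.3% and 33.3%, were near the 21% and 31% of all genes. The shares higher, 13.3% and 6.67%, were below the 20.6% and 19.5% of all genes. In the ratio 13.3% were lower, against 8.6% of all genes, and 3.33% higher, against 3.78%. The helicase *Ddx28* fell by 0.61 in nascent RNA with a ratio that rose by 0.56, while *Rcc1l* rose by 0.59 in nascent RNA with a ratio that fell by 0.89. *Mpv17l2* and *Mrm1* fell in nascent RNA by 0.58 and 0.47 and in total RNA by 0.54 and 0.60. *Rpusd3*, on chromosome 6, rose by 0.67 and 0.49, and *Malsu1*, also there, rose by 0.58 in nascent RNA with a ratio that fell by 0.71. *Trub2* rose by 0.19 and *Tfb1m* fell by 0.49 in total RNA, the latter with a ratio that fell by 0.70.

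The cytosolic ribosome gave a reference of its own kind. Of its 82 tested genes, 80 were lower and 1 higher in nascent RNA (median -0.92). In total RNA 75 were lower and 1 higher (median -0.74), and in the ratio 14 were higher and none lower (median 0.19). Genes lower made up 97.6% in nascent and 91.5% in total RNA, against 21% and 31% of all genes. Those higher in the ratio made up 17.1%, against 3.78% of all genes. The mitochondrial ribosomal genes had medians of -0.13, -0.24 and -0.10 in the same libraries. The difference between these gene sets was not tested.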

How the data were processed

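4sU-labelled and total RNA were sequenced from 7 ESC cultures. Per the file headers and submitters' processing notes, adapters were removed by the authors (Cutadapt 1.14), alignment was to mm10 (STAR 2.5.3a, unique alignments), and counting was on the reverse strand over Gencode M14 (featureCounts 1.5.3). The deposited values are raw counts per gene, not normalised. The 4sU libraries had a single-end and a re-sequencing (paired) run, summed here, while total RNA had the former alone. Rows of the 92 ERCC spike-ins were 0 throughout and were left out, so a change in the RNA content of a cell is not measured. Counting used uniquely mapped reads, which can lower the counts of genes with near-identical pseudogenes.

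A filter (3 CPM or more in 3 or more libraries) preceded the fit in edgeR 4.0.16 (R 4.3.3, TMM over 14 libraries, robust quasi-likelihood F test) with 1 mean per genotype and RNA fraction. Contrasts were KO over WT in 4sU, in total RNA, and their interaction (total over 4sU), adjusted by Benjamini-Hochberg. Ratios by culture are log2 with 0.5 CPM added. The labels do not say whether cultures of a genotype were grown independently, so p-values measure the spread between these samples, which may be technical. Named genes were up to 6 called members per direction and comparison with the largest change, all members on chromosome 6, the S18 paralogs, the extremes of WT level and ratio, members not tested and up to 3 called genes per direction of the other lists. The members and lists were chosen with earlier results of these data known. The scripts were tested on simulated data. Alternatives used DESeq2 1.42.0, limma-voom 3.58.1, other scalings, filters, runs, clones and left-out cultures.

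The 4sU and total RNA of a culture were split from 1 extract, so each culture pairs its libraries. The deviations of the pair from their group means correlated at r = 0.0037 to 0.133 over 7784 genes.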

Additional observations from a re-analysis of the deposited data

Results flagged for a closer look

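In nascent RNA of *Mrpl19*, 1 KO culture stood apart: clone 1 culture 1 had 124 CPM, and the other KO cultures had 108, 108 and 110 CPM. On the log2 scale, its gap to the nearest culture was 0.859 of the range of the 4 values, above Dixon's critical value. The call of *Mrpl19* was kept in all 18 alternatives. Chance flags about 1 in 20 such groups, and 41 groups were examined.

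Among the 5 entries for mitochondrial ribosomal pseudogenes, which are outside the rule, *Mrpl48-ps* had 78 counts and *Mrpl23-ps1* 7 counts over the 14 libraries. All 7 counts of *Mrpl23-ps1* were in total RNA.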

How the results depend on the processing

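Depth limits the ratio, since the 4sU libraries hold fewer counts than total RNA. For *Mrpl23*, *Mrps36* and *Mrps33* the low fraction was total RNA, with WT means of 0.45, 0.79 and 2.70 CPM. Values below are members lower and higher, or the member median minus that of all genes, beside the main 25 and 5 in nascent RNA, 43 and 5 in total RNA and 2 and 2 in the ratio, with main median differences of -0.14, -0.15 and -0.01. The cause of the shifts was not tested unless named.

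With library size alone the counts were 11 and 13 in nascent RNA, 24 and 7 in total RNA, and 8 and 1 in the ratio. Of all genes, 12.5% were then lower and 3.18% higher in the ratio. This choice moved the median of all genes in nascent RNA from 0.00 to 0.21, and the median differences kept their size. The re-sequencing run alone gave 16 and 3 in nascent RNA, with median differences of -0.17 for all members and -0.24 for the small subunit. Of all genes, 14.3% were lower and 13.1% higher in nascent RNA in that run. In the ratio that run called 1 member higher (2.59% of all genes), and the small subunit difference turned from -0.09 to 0.000644. The single-end run alone called 0 members higher in the ratio (3.00% of all genes) and gave -0.046 for the small subunit in nascent RNA. *Mrpl35* lost its nascent call there (adjusted p = 0.088, over 18 alternatives from 1.23e-06). Without a filter beyond 1 count, 28 members were lower in total RNA, and nascent median differences were -0.083 for all members, -0.085 for the large and -0.064 for the small subunit. With a fold above 2 the counts were 1 and 0 in nascent RNA, 1 and 0 in total RNA, and 0 and 0 in the ratio. Without chromosome 6 members, 1 member was higher in nascent and 1 in total RNA, and the nascent median difference was -0.18. Clone 1 alone gave 1 and 1 in the ratio (5.09% and 2.62% of all genes) and -0.062 for the small subunit in nascent RNA. Clone 2 alone gave 1 higher in the ratio (2.82% of all genes) and -0.16 and -0.12 for the small subunit in nascent and total RNA. limma-voom called 1 higher in the ratio (3.42% of all genes).

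Leaving out 1 culture gave 1 to 3 lower and 1 to 2 higher in the ratio, 19 to 24 lower in nascent RNA and 36 to 41 lower in total RNA. Without WT culture 3 the ratio had 1 lower and 1 higher, and 1 member was higher also without WT culture 1, WT culture 2, clone 1 culture 1 or clone 2 culture 1. The nascent median difference ranged from -0.18 to -0.11, and that of the small subunit from -0.15 to -0.10. With the replicate block by culture, which pairs 4sU and total RNA, 2 members were lower and 2 higher in the ratio, the only comparison it was run for, and 9.74% of all genes were lower and 4.28% higher. The 4 members called in the main ratio kept their calls. The culture numbers shared by WT and KO are numbers only: r between same-numbered cultures was -0.0787 to 0.194, and with the replicate block by culture number there were 21 and 4 in nascent RNA, 38 and 5 in total RNA and 2 and 2 in the ratio. The shares of all genes lower and higher with that block were 19.9% and 19.8%, 29.2% and 18.5%, and 8.96% and 3.88%. All alternatives not named here kept the counts within 1.5 times, DESeq2 included. Without the members of shared or copied sequence, an alternative chosen after seeing the data, the counts were 22 and 4, 40 and 4, and 2 and 2.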
